A study of Mus musculus with 96 samples.

Results

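Closed poised enhancers were 2177 of the 42403 mouse GATA6 binding regions. They were the regions whose histone state in undifferentiated cells was classed as a poised enhancer and whose chromatin was classed as closed before GATA6 was expressed. Both classes are columns of the deposited table, and neither uses the binding values described here. The poised class held 6185 regions in all, and 4008 of them (3796 of moderate accessibility and 212 accessible) are called open poised enhancers below. The histone and accessibility classes were taken as deposited and were not rebuilt here. The paper derived the histone classes by clustering Encode histone data. Which marks define the deposited poised class is not given in the sources used here, so the definition below is the general one.

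A poised enhancer is a distal element that carries H3K4me1, the mark of enhancers, together with H3K27me3, the repressive mark of the Polycomb complexes, and lacks the acetylation of active elements. Poised enhancers of embryonic stem (ES) cells often lie near genes of lineages that the cells have not yet taken. GATA6 is a zinc finger transcription factor that binds GATA sequences and directs inner cell mass cells to the primitive endoderm (PrE). SOX17 is an endoderm factor that follows it, and OCT4, SOX2 and ESRRB are pluripotency transcription factors (PTFs).

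Binding was measured by chromatin immunoprecipitation with sequencing (ChIP-seq) in KH2 mouse ES cells (C57BL/6 x 129/Sv) carrying a Gata6 transgene that doxycycline (Dox) switches on. All ES cells of the study, the untreated ones included, carried this transgene, in clonal lines grown on feeder fibroblasts that were depleted before fixation. Without Dox (before Dox), and 8 h, 16 h and 1, 2 and 4 days into Dox at 1 µg/mL, cells were profiled for GATA6, SOX17, OCT4, SOX2 and ESRRB, together with input chromatin. XEN cells, a line of extra-embryonic endoderm from CD1 mice that was not given Dox, were profiled with all of these but ESRRB. GATA6 and SOX17 were further profiled in cells of 1 clone nucleofected with control or Oct4 siRNA and given Dox for 48 h. OCT4 was not profiled there, so the knock-down could not be checked in the table. Of the 96 libraries, 18 were of GATA6, 18 of SOX17, 13 of OCT4, 16 of SOX2, 12 of ESRRB and 19 of input.

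Values are reads on each region scaled to library size (RPM), pooled by the authors over the libraries of a condition into 1 value. GATA6 before Dox and OCT4 in XEN cells rest on a single library. No difference between conditions has a replicate check, and 95% intervals below describe the spread over regions, not over cultures. ChIP-seq of a population cannot tell stronger binding in each cell from binding in more cells. Depth could be read from the steps between low values in 4 columns, with 1 read worth 0.163 RPM for GATA6 before Dox, 0.133 for OCT4 in XEN cells, 0.110 for ESRRB at 8 h and 0.05 for SOX17 at 16 h. The median closed poised enhancer held 3 reads in the first of these, so levels before Dox are coarse. No region was listed at 0 and the lowest values were of 1 step, and whether a read was added to every count is not given in the sources used here.

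The sequences below show the best GATA6 motif, in capitals, with 14 flanking bases on each side, at members described later, chosen by rank of GATA6 level or change. They were read from GRCm38 on the strand of the motif. The members with the highest GATA6 at 8 h lay near Slc7a1 (motif window chr5:148414674-148414714, plus strand) and in an intron of Cgnl1 (chr9:71750442-71750482, minus). The highest on day 4 lay in an intron of Col4a1 (chr8:11309377-11309417, minus), near Dhx40 (chr11:86871114-86871154, minus) and in an intron of Wfdc1 (chr8:119670561-119670601, minus). GATA6 rose most from 8 h to day 4 near Samd4 (chr14:47111764-47111804, plus) and Osgin1 (chr8:119432537-119432577, minus). It fell most near Rtn4rl1 (chr11:75270427-75270467, minus) and 4931429L15Rik (chr9:46395438-46395478, minus) and in an intron of Grm6 (chr11:50852514-50852554, minus).
Slc7a1: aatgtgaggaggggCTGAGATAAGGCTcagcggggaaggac
Cgnl1: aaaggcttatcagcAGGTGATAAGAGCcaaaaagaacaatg
Col4a1 intron: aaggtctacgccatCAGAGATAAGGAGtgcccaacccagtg
Dhx40: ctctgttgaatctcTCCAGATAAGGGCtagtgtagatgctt
Wfdc1: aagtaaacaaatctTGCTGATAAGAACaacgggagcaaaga
Samd4: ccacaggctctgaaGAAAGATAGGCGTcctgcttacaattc
Osgin1: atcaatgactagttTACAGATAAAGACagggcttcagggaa
Rtn4rl1: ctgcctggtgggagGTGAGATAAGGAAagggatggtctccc
4931429L15Rik: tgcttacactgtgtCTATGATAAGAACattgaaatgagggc
Grm6: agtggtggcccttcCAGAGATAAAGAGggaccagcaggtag

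Each of these motifs holds GATA. The best motif is not always at the GATA6 summit. Relative to the summit, along the chromosome, its centre lies at -914 bp at Dhx40, 494 bp at Col4a1 and -306 bp at 4931429L15Rik, and between -46 and 17 bp at the other members shown. The motif score, which measures the fit to the GATA6 matrix, was 12.2 at Slc7a1, 13.3 at Col4a1 and 13.5 at Rtn4rl1, against 6.57 at Samd4, 8.48 at Osgin1 and 8.78 at Grm6. Low scores were thus found both at members that gained GATA6 late and at Grm6, which lost it.

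The SOX17 motif, an ATTGT core, is shown in capitals for the 3 members with the highest SOX17 on day 4, in the Col4a1 intron (chr8:11308771-11308807, minus), near Dhx40 (chr11:86872086-86872122, minus) and in an intron of Ptpn14 (chr1:189846504-189846540, plus). The composite OCT:SOX motif is shown likewise for the 3 members with the highest OCT4 before Dox, near Slc7a1 (chr5:148415989-148416031, plus, at 1316 bp from the GATA6 summit), Dhx40 (chr11:86871587-86871629, plus, at -440 bp) and Mul1 (chr4:138416586-138416628, minus).
Col4a1 intron, SOX17 motif: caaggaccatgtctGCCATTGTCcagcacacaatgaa
Dhx40, SOX17 motif: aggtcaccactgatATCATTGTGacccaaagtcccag
Ptpn14, SOX17 motif: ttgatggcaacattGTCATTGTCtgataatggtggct
Slc7a1, OCT:SOX motif: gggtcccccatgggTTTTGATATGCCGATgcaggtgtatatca
Dhx40, OCT:SOX motif: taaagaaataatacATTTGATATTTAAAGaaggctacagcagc
Mul1, OCT:SOX motif: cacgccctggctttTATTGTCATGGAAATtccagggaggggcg

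The first question was how GATA6 came and went at these closed elements. GATA6 was higher at 8 h, had the same median on day 4 and was slightly higher in XEN cells. Its median was 0.490 RPM before Dox, 1.12 at 8 h, 1.33 at 16 h, 1.11 on day 1, 0.896 on day 2, 1.12 on day 4 and 1.34 in XEN cells. Before Dox the signal was no higher than input (median ratio 0.895), and at 8 h it was 3.28 times input. The medians hide a wide spread, with quartiles of 0.4999 and 2.29 RPM and a highest member of 41.0 RPM at 8 h.

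From before Dox to 8 h the median change was 1.17 on the log2(RPM + pseudocount) scale (95% interval 1.09 to 1.25 over regions). It was at least 2-fold higher at 1192 of the 2177 members (54.8%), beside 61.1% of all regions. Only 54 members (2.48%) were at least 2-fold lower, beside 2.08% of all regions. At open poised enhancers the median change was larger, at 1.70, and 74.3% of them passed 2-fold. Closed members thus had less GATA6 at 8 h than open ones, with 1.12 against 1.92 RPM. The table holds only regions that GATA6 bound, and the median change over all of them was 1.42, so relative to this the closed members stood at -0.24.

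From 8 h to day 4 the members split evenly. GATA6 was at least 2-fold higher at 686 members (31.5%) and at least 2-fold lower at 639 (29.4%), with a median change of 0.18 (0.06 to 0.30). Over all regions 31.4% were higher and 35.1% lower, so the share that rose was near the background and the share that fell somewhat below it. The median turned to -0.11 when each value was divided by the input of its condition. At open poised enhancers GATA6 had, over the same interval, a median change of -0.96 (-1.02 to -0.87), with 15.4% higher and 49.0% lower. On day 4 the levels were 1.12 RPM at closed and 1.03 RPM at open poised enhancers, a ratio of 1.08 whose interval over regions includes 1 (0.986 to 1.20). Divided by width, since closed members were narrower, these levels were 2.89 and 2.12 RPM per kb, a ratio of 1.36 (1.244 to 1.497).

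**Figure D1:**
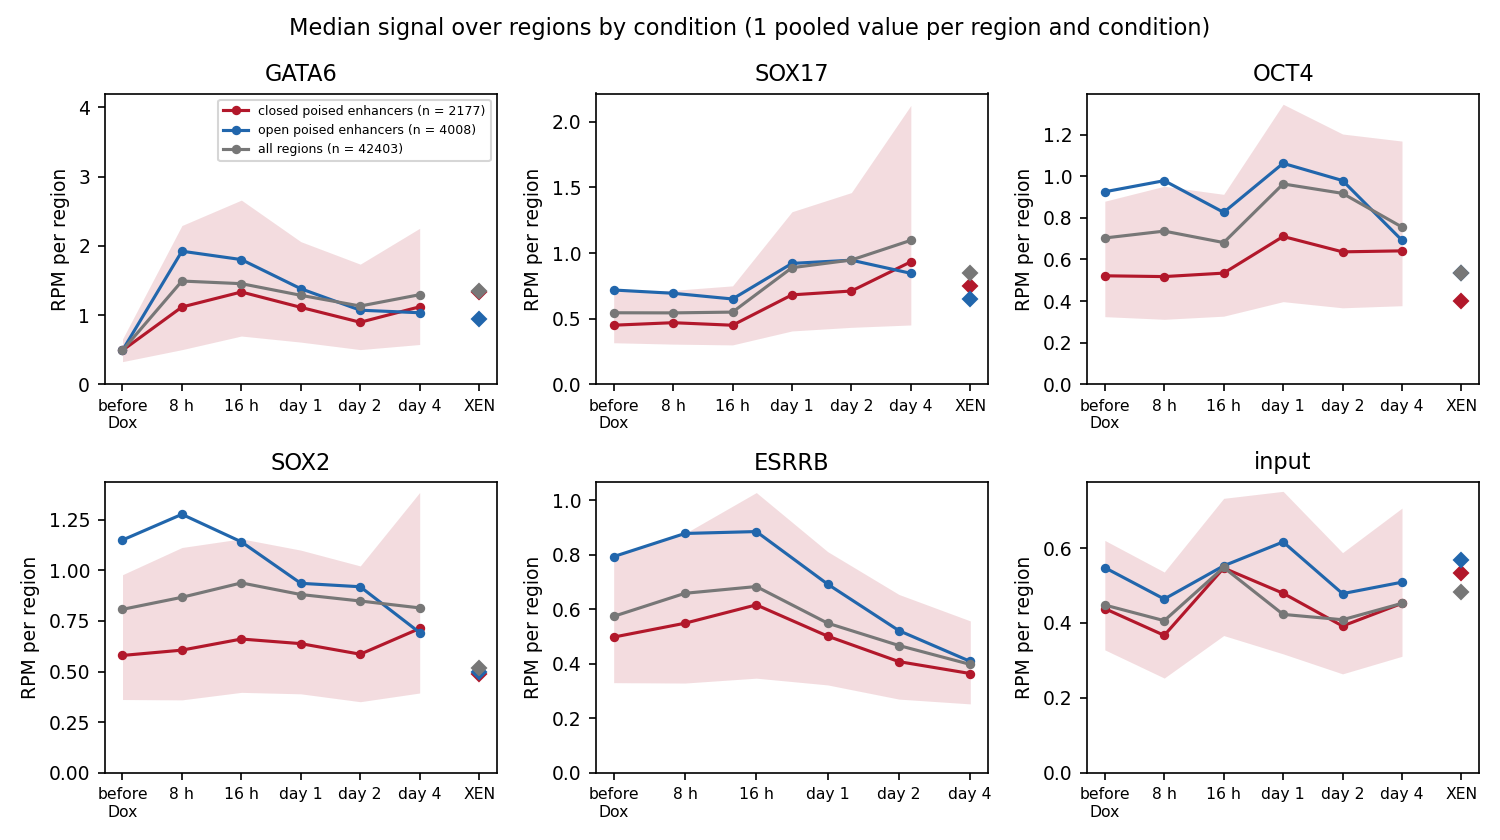
Median RPM per region (vertical axis, linear) at each time of Dox and in XEN cells (diamonds) for 6 assays, with closed poised enhancers in red (band, quartiles), open poised enhancers in blue and all GATA6 regions in gray. GATA6 at 8 h is lower at closed than at open poised enhancers (1.12 against 1.92 RPM), and on day 4 the levels are close (1.12 against 1.03 RPM, a ratio of 1.08 with an interval of 0.986 to 1.20).

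The time at which GATA6 was highest also differed between the members. Over the 5 times after Dox, 852 members (39.1%) had their highest value on day 4, 554 (25.4%) at 16 h and 522 (24.0%) at 8 h. Day 1 and day 2 were the peak at 166 and 83 members. Among open poised enhancers 41.1% peaked at 8 h and 22.8% on day 4. Over all regions 32.9% peaked at 8 h, 17.9% at 16 h and 37.8% on day 4. The share of members that peaked on day 4 was thus near the background. Values at 8 h ranked the members quite differently from values on day 4 (Spearman 0.131 over 2177 regions), whereas day 4 and XEN cells ranked them much alike (0.749). These values share region width and mappability and are given as descriptions.

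The authors sorted regions by k-means on GATA6 itself into Early&Constant, Late and Transient classes, so GATA6 levels by class follow from the sorting. Of the closed poised enhancers, 465 (21.4%, Wilson interval 19.7 to 23.1) were Early&Constant, 845 (38.8%, 36.8 to 40.9) Late and 867 (39.8%, 37.8 to 41.9) Transient. Late regions made up 20.9% of open poised enhancers and 33.6% of all regions, and Transient regions 59.3% and 38.4%. Early&Constant members had median GATA6 of 2.29 RPM at 8 h, 3.49 at 16 h, 2.86 on day 4 and 3.31 in XEN cells. Late members went from 0.420 RPM at 8 h over 0.658 on day 2 to 1.37 on day 4 and 2.03 in XEN cells. Transient members fell from 1.78 RPM at 8 h to 0.574 on day 4 and 0.470 in XEN cells.

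Late members were also the narrowest, with a median width of 347 bp, beside 437 bp for Transient and 654 bp for Early&Constant members. Per kb, GATA6 on day 4 was 4.03 RPM at Late and 4.69 RPM at Early&Constant members.

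SOX17, which was used neither to select the members nor to sort them by GATA6, was higher on day 4 at most Early&Constant and Late members and at few Transient ones. Over all members its median was 0.450 RPM before Dox, 0.469 at 8 h, 0.450 at 16 h, 0.681 on day 1, 0.711 on day 2, 0.933 on day 4 and 0.752 in XEN cells. It was at its starting level through 16 h and higher from day 1 on. From before Dox to day 4, SOX17 was at least 2-fold higher at 967 members (44.4%), beside 44.8% of all regions, and at least 2-fold lower at 64 (2.94%), beside 8.97%. The rise was thus as frequent as over all GATA6 regions and more frequent than at open poised enhancers (29.9% higher, 14.1% lower).

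Split by GATA6 class, SOX17 went from 0.788 to 2.21 RPM at Early&Constant members and from 0.350 to 1.40 RPM at Late members between the untreated cells and day 4. At Transient members it was 0.496 RPM before Dox and 0.435 on day 4. At least 2-fold higher were 64.7% of Early&Constant, 69.9% of Late and 8.65% of Transient members, beside 44.8% of all regions. The same classes over all regions are not given here for this change, so the split is not shown to be particular to the members. Input also moved in the same direction in each class, with median changes of 0.18 (Early&Constant), 0.13 (Late) and -0.08 (Transient). Its part in the SOX17 values was not tested. The SOX17 changes were 1.40, 1.53 and -0.12.

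**Figure D2:**
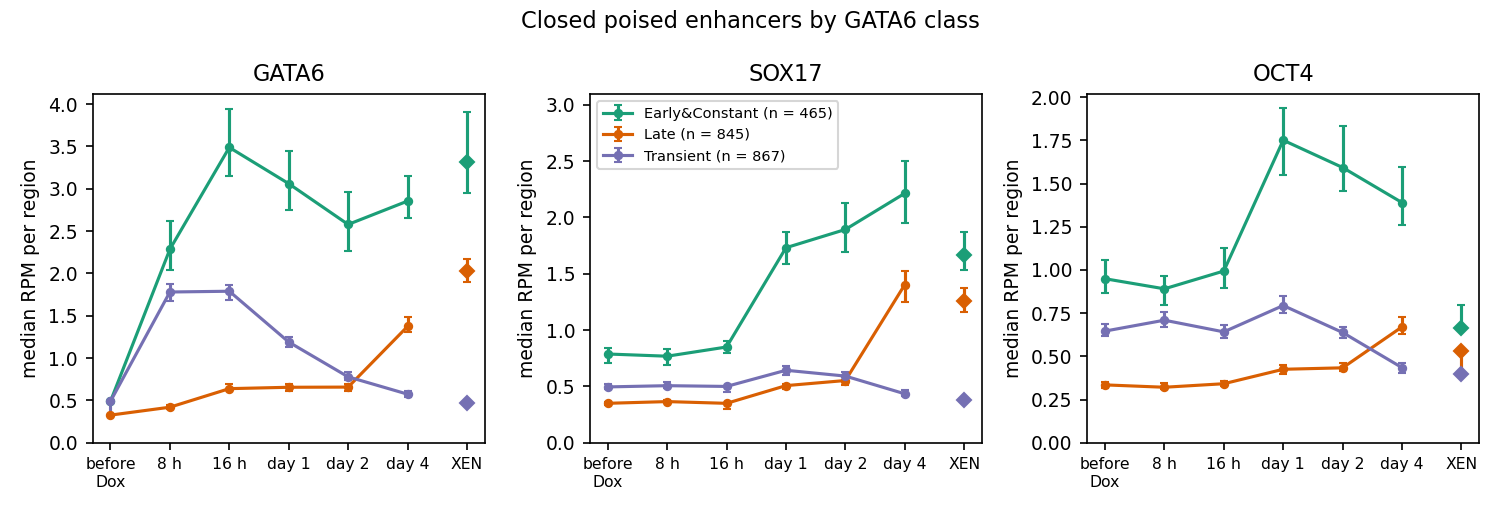
Median RPM of GATA6, SOX17 and OCT4 (linear axes) for the 465 Early&Constant, 845 Late and 867 Transient closed poised enhancers, with 95% intervals of the median over regions as bars and XEN cells as diamonds. SOX17 at Late members is 0.553 RPM on day 2 and 1.40 RPM on day 4, while at Transient members it ends at 0.435 RPM.

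By the authors' peak calls 804 members (36.9%) were bound by SOX17, beside 34.7% of open poised enhancers and 44.5% of all regions. SOX17-bound members made up 62.2% of Early&Constant, 49.1% of Late and 11.5% of Transient members. Over all regions the same shares were 72.7%, 53.4% and 16.2%, so each class of closed poised enhancers had SOX17 somewhat less often. SOX17-bound members had less GATA6 at 8 h than the others (0.931 against 1.20 RPM) and more on day 4 (2.60 against 0.716 RPM).

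GATA6 and SOX17 moved together region by region. Among the 686 members at which GATA6 rose at least 2-fold from 8 h to day 4, SOX17 was at least 2-fold higher on day 4 than before Dox at 601 (87.6%). Among the 852 with a smaller GATA6 change it was higher at 353 (41.4%), and among the 639 that lost GATA6 at 13 (2.03%). Over all regions the same shares were 89.95%, 46.8% and 2.56%. At day 4 the levels of both factors ranked the members almost alike (Spearman 0.907 over 2177 regions). Width and input signal are shared by both assays, and GATA6 and input on day 4 had a Spearman correlation of 0.698.

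The SOX17 motif was less frequent here than over all regions, with a motif of the high class in 14.8% of members (all regions 19.6%) and none in 42.1% (30.8%). Of open poised enhancers, 16.9% had a high motif and 38.6% none. Members with a high SOX17 motif had SOX17 of 1.78 RPM on day 4, beside 1.60 for the mid, 0.984 for the low class and 0.616 without a motif. Before Dox the same classes had 0.529, 0.556, 0.511 and 0.386 RPM, a much narrower range. Members without a SOX17 motif were narrower (366 bp against 492 bp for the high class), and per kb the day 4 values were 3.96 RPM for the high class and 1.81 RPM without a motif.

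The most extreme member for SOX17 lay in an intron of Col4a1 (chr8:11308478-11310403), 3902 bp from the start of Col4a2. Both genes encode chains of type IV collagen, the scaffold of the basement membranes that PrE cells secrete. SOX17 there was 4.99 RPM before Dox, 4.12 at 8 h, 8.4 at 16 h, 33.2 on day 1, 53.0 on day 2, 114 on day 4 and 16.8 in XEN cells. The value on day 4 was the highest of all 42403 regions. GATA6 was 1.63, 16.8, 24.4, 20.3, 24.7 and 49.1 RPM at the 6 times and 14.4 RPM in XEN cells. The region was called bound by PTFs before Dox, and ESRRB was 18.9 RPM before Dox, 31.4 at 16 h, 20.8 on day 2 and 4.10 on day 4. Input rose there too, from 1.24 RPM at 8 h to 6.53 RPM on day 4, and its part in these values was not tested. A wider stretch around the GATA6 motif of this member (chr8:11309271-11309523, minus strand, motif in capitals) is shown because this member had the highest GATA6 of the members on day 4. The motif centre lies 494 bp from the GATA6 summit, so the stretch does not hold the summit.
Col4a1 intron, 253 bases: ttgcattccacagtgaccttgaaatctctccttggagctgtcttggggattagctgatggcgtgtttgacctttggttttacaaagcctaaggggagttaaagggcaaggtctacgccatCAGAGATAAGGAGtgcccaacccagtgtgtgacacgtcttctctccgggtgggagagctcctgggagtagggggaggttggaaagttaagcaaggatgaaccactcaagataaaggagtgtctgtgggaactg

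At the other members with the highest SOX17 on day 4, it was also higher from day 1 on. The Dhx40 member (chr11:86870920-86873842, intergenic), named for an RNA helicase gene, is the widest of the set and went from 6.14 RPM before Dox to 18.9 on day 1 and 45.1 on day 4. The Ptpn14 member (chr1:189846092-189847182, intron), in a phosphatase gene, went from 1.07 to 11.99 and 34.7 RPM, and had no GATA6 motif. Near Fth1 (chr19:9940675-9941542), the gene of the ferritin heavy chain, SOX17 rose from 1.36 to 18.8 and 34.1 RPM while GATA6 went from 0.817 RPM to 5.46 on day 1 and 10.3 on day 4. In an intron of Mmp15 (chr8:95358566-95359732), a membrane-anchored metalloproteinase gene, SOX17 went from 1.48 to 6.89 and 32.3 RPM. At all 5, SOX17 was lower at 16 h than on day 1 and lower on day 1 than on day 4. The members were ranked by SOX17 on day 4, so a high level then in part follows from the choice.

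The PTFs were next followed over the same regions. Few members were bound by them beforehand. By the authors' peak calls, 86 members (3.95%) were bound by PTFs before Dox, beside 22.6% of open poised enhancers and 20.9% of all regions. A further 289 (13.3%) were called ectopic, that is bound by PTFs after Dox only, beside 13.0% and 16.6%, and 1802 members had no PTF call. None of the 845 Late members was called bound before Dox (upper limit 0.453%, Wilson), and 50 were ectopic.

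OCT4 was low before Dox and a little higher from day 1. Its median was 0.521 RPM before Dox, 0.518 at 8 h, 0.534 at 16 h, 0.710 on day 1, 0.637 on day 2, 0.641 on day 4 and 0.400 in XEN cells. From before Dox to day 2 the median change was 0.22 (0.18 to 0.25), close to that over all regions (0.23). OCT4 was at least 2-fold higher at 280 members (12.9%), beside 14.6% of all regions, and at least 2-fold lower at 37 (1.70%), beside 4.86%.

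SOX2 had a median change of 0.01 from before Dox to day 2, with 92 members (4.23%) at least 2-fold higher and 68 (3.12%) lower. Over all regions 6.01% were higher and 6.70% lower. At open poised enhancers SOX2 fell by 0.24, with 12.9% at least 2-fold lower. From day 2 to day 4, however, SOX2 rose at Late members (0.76) and fell at Transient ones (-0.25), and OCT4 did likewise (0.47 and -0.41). At Early&Constant members, median SOX2 went from 1.38 to 1.665 RPM and median OCT4 from 1.59 to 1.39 RPM. Over all members, SOX2 was at least 2-fold higher at 18.1% and lower at 5.145%, beside 15.3% and 17.0% of all regions. For OCT4 these shares were 7.21% and 7.58%, beside 6.92% and 17.5%. The same classes over all regions are not given here. SOX2 and SOX17 ranked the members almost alike on day 4 (Spearman 0.918, width shared).

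ESRRB was lower on day 4 at the median member, by less than over all regions (-0.33 against -0.40, which is 0.070 relative to all regions). Its median went from 0.498 RPM before Dox (input 0.438 RPM) through 0.617 at 16 h to 0.408 on day 2 and 0.364 on day 4. At least 2-fold lower were 320 members (14.7%), beside 25.2% of all regions and 35.5% of open poised enhancers, and only 3 (0.138%) were higher, beside 0.248%. The median change was -0.55 in the Transient class, -0.44 in the Early&Constant class and -0.04 in the Late class, whose members had the least ESRRB to begin with (0.376 RPM).

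Members called bound by PTFs before Dox had the most GATA6 at 8 h. GATA6 at these 86 was 7.37 RPM at 8 h and fell to 1.998 RPM on day 4, beside 2.05 and 3.37 RPM at ectopic members and 0.977 and 0.984 RPM at members without a PTF call. Their median change of GATA6 from before Dox to 8 h was 3.13, and 62 of the 86 were at least 2-fold lower by day 4 (72.1%, beside 35.1% of all regions). The same class over all regions is not given here, so the share that fell is not shown to be particular to the members. The 86 were also the widest, with a median of 897 bp against 393 bp for members without a PTF call. Per kb, GATA6 at the 86 was 8.766 RPM at 8 h and 2.35 RPM on day 4. Members without a PTF call had 2.611 and 2.711 RPM per kb, so the order on day 4 was reversed. Ectopic members had 3.004 and 4.845 RPM per kb. Over all members, OCT4 before Dox and GATA6 at 8 h ranked the regions alike (Spearman 0.835 over 2177 regions, with width and mappability shared).

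At ectopic members OCT4 and SOX17 were both higher from day 1. OCT4, whose peaks define the class together with those of SOX2 and ESRRB, went from 1.09 RPM before Dox to 2.38 on day 1 and 2.12 on day 4. SOX17, which does not define it, went from 0.829 to 2.27 and 2.79 RPM. By peak calls 221 of the 289 ectopic members (76.5%) were bound by SOX17. This stands beside 29.8% of members without a PTF call and 44.5% of all regions. The paper reports that ectopic regions in general were enriched for SOX17, so the relation is not particular to the members. Of the ectopic members 165 were Early&Constant and 74 Transient.

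The largest rises of OCT4 from before Dox to day 2 were near Sall4 (chr2:168855306-168855842), a zinc finger factor of pluripotent cells, near Gpr6 (chr10:41144849-41145343), near Irf2bp2 (chr8:126615479-126616504), a transcriptional corepressor, and in introns of Myo7a (chr7:98114567-98115142), an unconventional myosin, and F2r (chr13:95606306-95607209), the thrombin receptor. At the Irf2bp2 member OCT4 was 2.04 RPM before Dox, 0.826 at 8 h, 3.75 at 16 h, 8.92 on day 1, 12.8 on day 2, 26.4 on day 4 and 1.47 in XEN cells. At the Gpr6 member it was 0.675, 0.518, 1.04, 3.85, 4.90 and 0.827 RPM and 0.267 RPM in XEN cells. All 5 were called ectopic and bound by SOX17. They parted on day 4, when OCT4 went on rising at Irf2bp2 and F2r (19.6 RPM) and fell back at Gpr6 and Sall4 (8.19 to 4.25 RPM).

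The highest OCT4 before Dox was near Slc7a1 (chr5:148414257-148416852), a cationic amino acid transporter gene, at 10.9 RPM. Next came the members near Dhx40 (9.35 RPM), Mul1 (chr4:138415159-138417033, 8.23 RPM), a mitochondrial ubiquitin ligase gene, Ywhaz (chr15:36756226-36757129, 7.85 RPM), a 14-3-3 protein gene, and Itga4 (chr2:79241250-79242484, 7.08 RPM), the integrin alpha 4 gene. All 5 had GATA6 over 12 RPM at 8 h. At Ywhaz, GATA6 was 0.817 RPM before Dox, 12.6 at 8 h, 9.49 at 16 h, 3.63 on day 1, 2.87 on day 2 and 1.28 on day 4. OCT4 at the same member was 7.85, 10.3, 11.3, 7.89, 5.17 and 0.720 RPM. OCT4 was thus lower by day 4 at Ywhaz, and Itga4 (0.819 RPM) and Mul1 (2.04 RPM) ran the same way, while Dhx40 kept 16.1 RPM of OCT4 and 41.3 RPM of GATA6.

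**Figure D3:**
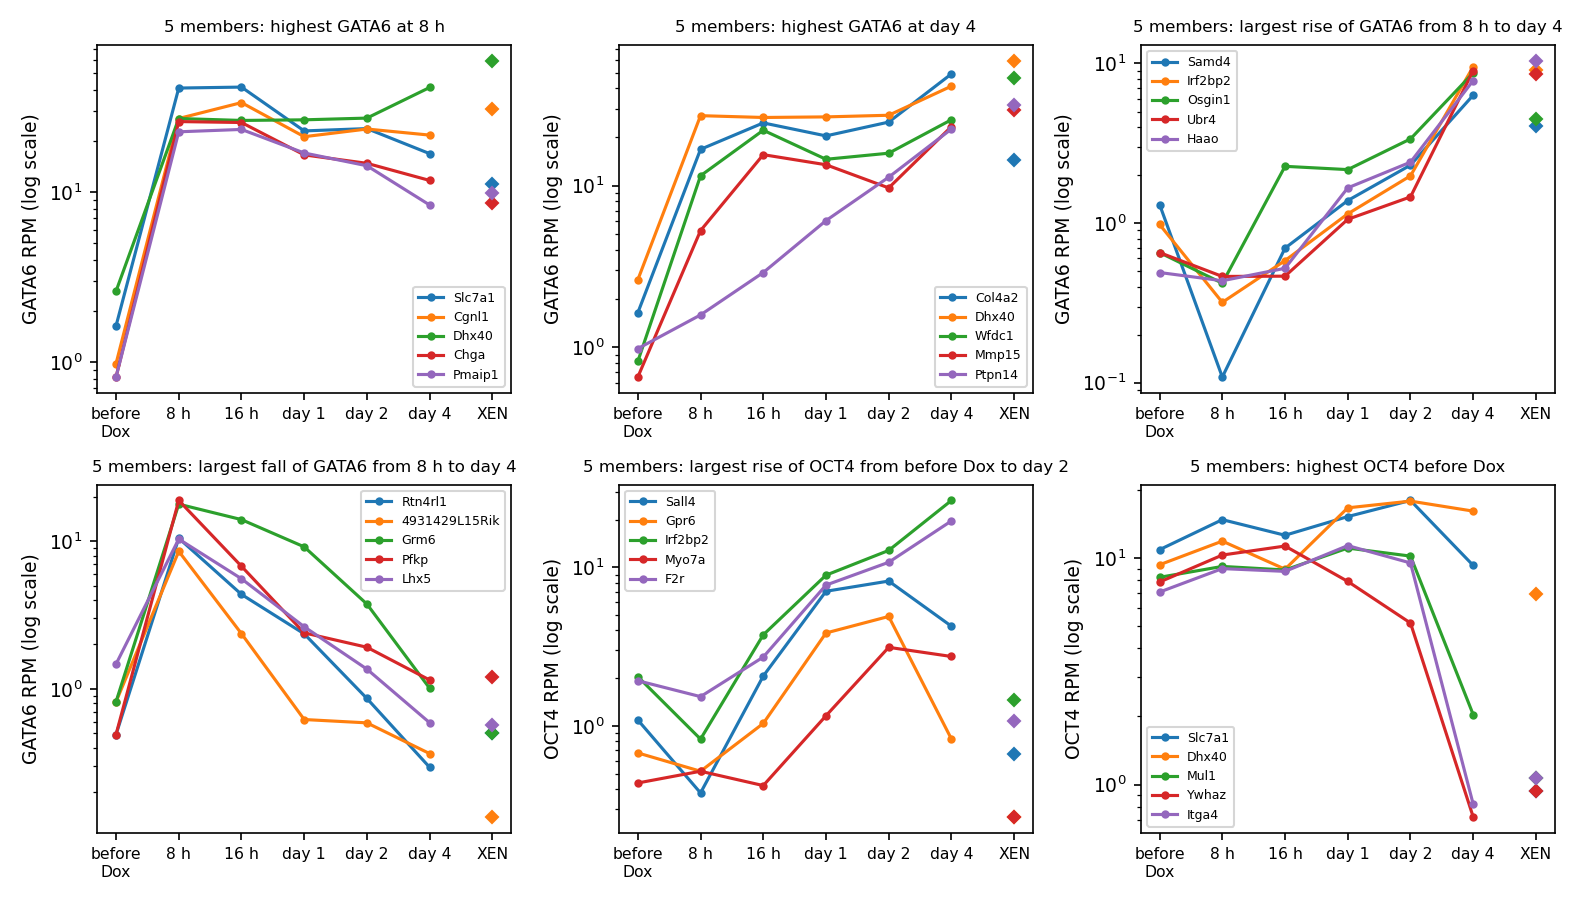
RPM (log axis) of GATA6 or OCT4 over time for the 5 closed poised enhancers that lead each of 6 rankings, 1 line per region named by the nearest protein-coding start (Col4a2 for the Col4a1 intron), with XEN cells as diamonds. Members chosen for the highest GATA6 at 8 h stay above 8 RPM on day 4. Those chosen for the largest fall of GATA6 end between 0.294 and 1.15 RPM, a low level that follows from the choice.

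The members with the highest GATA6 at 8 h lay near Slc7a1 (41.0 RPM), Cgnl1 (27.1), Dhx40 (27.1), Chga (26.0) and Pmaip1 (22.6). Cgnl1 encodes a junction protein, Chga the granule protein chromogranin A and Pmaip1 a pro-apoptotic factor. All 5 were Early&Constant and bound by SOX17 and by PTFs before Dox. At Slc7a1, GATA6 was 1.63 RPM before Dox, 41.0 at 8 h, 41.5 at 16 h, 22.9 on day 1, 23.7 on day 2, 16.9 on day 4 and 11.1 in XEN cells. At Dhx40 it was 2.61, 27.1, 26.4, 26.6, 27.3 and 41.3 RPM, and 59.5 RPM in XEN cells, the highest of any member there. The peak was thus early at Slc7a1 and late at Dhx40, although both were called Early&Constant.

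GATA6 on day 4 was highest in the Col4a1 intron (49.1 RPM), near Dhx40 (41.3) and in introns of Wfdc1 (25.6), Mmp15 (23.2) and Ptpn14 (22.4). At Ptpn14, GATA6 was 0.980 RPM before Dox, 1.58 at 8 h, 2.90 at 16 h, 6.07 on day 1, 11.3 on day 2, 22.4 on day 4 and 31.6 in XEN cells. This member rose at every step, where the Col4a1 and Wfdc1 members were already at 16.8 and 11.5 RPM at 8 h.

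The largest rises from 8 h to day 4 were near Samd4 (chr14:47111605-47112063), Irf2bp2 (chr8:126609805-126610258), Osgin1 (chr8:119432198-119432820) and Haao (chr17:83962579-83963197) and in an intron of Ubr4 (chr4:139386975-139387655). At the Ubr4 member, in a ubiquitin ligase gene, GATA6 was 0.653 RPM before Dox, 0.463 at 8 h, 0.465 at 16 h, 1.06 on day 1, 1.46 on day 2, 9.02 on day 4 and 8.55 in XEN cells. SOX17 there was 0.732, 0.894, 0.5, 0.932, 1.34 and 10.1 RPM and 7.91 RPM in XEN cells, and OCT4 reached 6.87 RPM on day 4 from 0.976 on day 2. All 5 were Late and bound by SOX17, and SOX17 on day 4 was between 5.68 RPM at Osgin1 and 12.5 RPM at Haao. The classes were sorted on GATA6 itself, so the Late class in part follows from the choice.

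The largest falls were near Rtn4rl1 (chr11:75270206-75270828), 4931429L15Rik (chr9:46395364-46396009) and Lhx5 (chr5:120280966-120282457), a homeobox gene of the forebrain, and in introns of Grm6 (chr11:50851679-50853155), a glutamate receptor gene of the retina, and Pfkp (chr13:6643137-6644625), a phosphofructokinase gene. At Rtn4rl1, GATA6 was 0.490 RPM before Dox, 10.48 at 8 h, 4.36 at 16 h, 2.36 on day 1, 0.860 on day 2, 0.294 on day 4 and 0.501 in XEN cells. At Grm6 it was 0.817, 17.8, 14.01, 9.16, 3.75 and 1.01 RPM and 0.499 RPM in XEN cells. All 5 were Transient without a SOX17 or PTF call, and OCT4 before Dox was between 1.07 RPM at Rtn4rl1 and 3.12 RPM at Grm6. The Transient class, sorted on GATA6, likewise in part follows from the choice.

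GATA6 motifs were more frequent at closed than at open poised enhancers. A motif of the high class was present in 29.2% of members (open 21.7%, all regions 26.8%), and no motif in 10.3% (16.0% and 10.3%). Other closed regions had a high motif about as often. The shares were 29.7% in the deposited class of closed primed enhancers and 29.9% in that of closed facultative heterochromatin. Of the 1952 members with a motif, 22 have a best match cut short by the region's edge. Over the other 1930, the motif centre lay a median of 38 bp from the GATA6 summit (open 46 bp, all regions 50 bp), and 1552 (80.4%) held GATAA, beside 71.6% and 77.0%. The string AGATAA, on either strand, was present within the 201 bases around the summit in 57.2% of members, 45.3% of open poised enhancers and 54.3% of all regions. In the Early&Constant, Late and Transient classes of the members the share was 68.4%, 42.0% and 66.0%. Closed primed enhancers and closed facultative heterochromatin held the string in 58.0% and 62.5%.

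The motif went with GATA6 at 8 h and hardly at all with GATA6 on day 4. Median GATA6 at 8 h was 1.97 RPM for the high motif class, 1.30 for the mid, 0.717 for the low class and 0.383 without a motif. At day 4 the same classes had 1.14, 1.19, 1.12 and 0.897 RPM. Members with a high motif were wider (527 bp) than those without (310 bp), and per kb the values were 3.999, 3.17, 1.74 and 1.17 RPM at 8 h and 2.40, 2.995, 3.24 and 2.89 RPM on day 4. The score of the motif had a Spearman correlation of 0.417 with GATA6 at 8 h and 0.0144 with GATA6 on day 4 over 1952 members. At open poised enhancers the order of the classes was kept on day 4 (1.23, 1.18, 0.947 and 0.722 RPM). Closed primed enhancers kept it as well (1.74, 1.63, 1.51 and 1.11 RPM). In closed facultative heterochromatin, as at the members, it was not kept, with 1.12, 1.23, 1.19 and 0.994 RPM on day 4. There the values at 8 h were 1.18, 0.732, 0.398 and 0.275 RPM. The motif score had a Spearman correlation with GATA6 on day 4 of 0.12 at open poised enhancers and 0.055 over all regions. The orders in the other groups are in RPM, and their values per kb are not given here. The weak link on day 4 was thus not particular to the members.

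**Figure D4:**
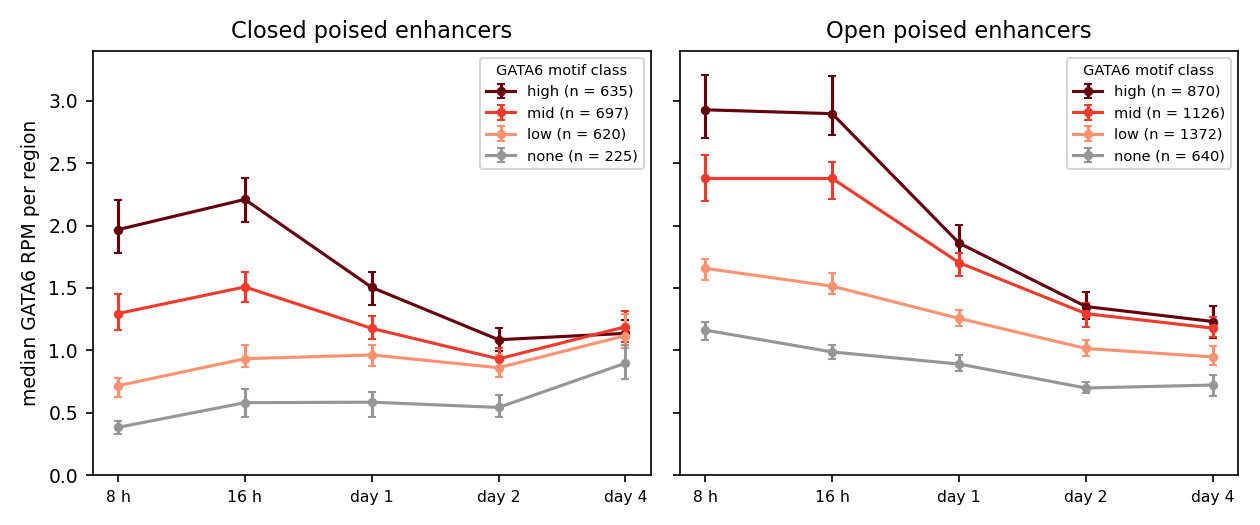
Median GATA6 RPM (linear axis) from 8 h to day 4 by class of the best GATA6 motif, with 95% intervals over regions, for closed (left) and open (right) poised enhancers. The 4 classes run from 0.383 to 1.97 RPM at 8 h at closed members and lie between 0.897 and 1.19 RPM on day 4.

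Of the 620 members with a low motif, 323 (52.1%) were Late, as were 158 of the 225 without a motif (70.2%), beside 41.1% and 46.0% over all regions. A high motif was present in 13.6% of Late members, 40.4% of Early&Constant and 38.3% of Transient ones, and no motif in 18.7%, 3.01% and 6.11%. In turn, 121 of the 225 members without a motif (53.8%) gained GATA6 at least 2-fold from 8 h to day 4, beside 106 of the 635 with a high motif (16.7%) and 31.4% of all regions. A high OCT:SOX motif was rare (72 members, 3.31%). Of these 72, 46 (63.9%) were at least 2-fold lower in GATA6 over the same interval, beside 35.1% of all regions. The same motif classes over all regions are not given here, so these shares are not shown to be particular to the members. Without a GATA6 motif, median GATA6 from 8 h to day 4 went from 0.275 to 0.994 RPM in closed facultative heterochromatin. It went from 0.622 to 1.11 RPM at closed primed and from 1.16 to 0.722 RPM at open poised enhancers. Since only regions that GATA6 bound are listed, one unbound at 8 h was bound at another time.

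Cells given Oct4 siRNA were compared with control siRNA for GATA6 and SOX17, at 48 h of Dox. GATA6 changed little over all members but in opposite directions in the classes. Its median was 1.30 RPM with control and 1.40 RPM with Oct4 siRNA, a median change of 0.09 (0.06 to 0.12). It was at least 2-fold higher at 202 members (9.28%), beside 8.19% of all regions, and lower at 93 (4.27%), beside 5.65%. Late members had a median change of 0.51 with 175 of 845 higher and 4 lower, Transient members -0.26 with 14 of 867 higher and 82 lower, and Early&Constant members 0.08. Ectopic members and those bound by PTFs before Dox had -0.14 and -0.30, beside 0.13 at members without a PTF call. The same classes over all regions are not given here, so these directions are not shown to be particular to the members.

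SOX17 was higher with Oct4 siRNA at most regions of the table. Its median over members was 0.623 RPM with control and 1.03 RPM with Oct4 siRNA, and it was at least 2-fold higher at 467 members (21.5%), beside 21.2% of all regions. The median change was 0.54 at the members and 0.53 over all regions. Relative to the latter, it was 0.01, with 136 members (6.25%) at least 2-fold higher, beside 5.98%, and 87 (3.996%) lower, beside 4.39%. Before this shift was taken off, the median change of SOX17 was 0.79 for the Late, 0.60 for the Early&Constant and 0.28 for the Transient class.

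GATA6 fell most with Oct4 siRNA near Hrh2 (chr13:54165066-54165476, from 1.25 to 0.177 RPM), Ffar3 (chr7:30856060-30856619, 1.95 to 0.353), Pik3c3 (2.40 to 0.525 RPM) and Scd1 (chr19:44376120-44376710, 1.17 to 0.249) and in an intron of Camta1 (chr4:151709130-151709492, 4.15 to 1.05). All 5 were Transient and not called bound by SOX17. Their values on day 2 of the time course lay between 0.561 RPM at Hrh2 and 1.58 RPM at Pik3c3.

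GATA6 rose most near Rab3ip (chr10:116955961-116956270, from 0.732 to 4.83 RPM), Tob1 (chr11:94144598-94145288, 0.871 to 5.02), Zdhhc17 (chr10:111015447-111015682, 0.193 to 1.55) and Prss34 (chr17:25292577-25292932, 0.216 to 1.65) and in an intron of Flvcr2 (chr12:85766258-85766724, 0.135 to 1.20). All 5 were called bound by SOX17, 4 of them Late. At Tob1, an antiproliferative gene, GATA6 in the time course was 0.490 RPM before Dox, 0.499 at 8 h, 0.583 at 16 h, 0.965 on day 1, 0.737 on day 2, 4.90 on day 4 and 9.60 in XEN cells. At Prss34, SOX17 was 0.632 RPM on day 2, 4.51 on day 4 and 8.88 in XEN cells, and it went from 0.333 to 4.01 RPM with Oct4 siRNA. Since these members were chosen for their rise with Oct4 siRNA, their level there is a description of the choice.

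XEN cells were compared with day 4 for GATA6. The median change was 0.10 (0.05 to 0.15), with 383 members (17.6%) at least 2-fold higher in XEN cells, beside 14.8% of all regions, and 195 (8.96%) lower, beside 12.3%. Late members had a median change of 0.60 and 286 of 845 higher, while Transient members had -0.18. Ectopic members had -0.20, and members without a PTF call 0.18. For this change, too, the same classes over all regions are not given here. XEN cells come from another strain and were not treated with Dox, so strain, line and treatment cannot be told apart here.

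Most members lay away from promoters, in sequence with more CpG than that of all regions. By GENCODE, 1094 (50.3%) were in introns, 1026 (47.1%) between genes and 57 (2.62%) had their position in an exon. The nearest protein-coding start was a median of 18276 bp away (open 16544 bp, all regions 25683 bp), and 126 members (5.79%) had their summit within 1 kb of one. Median width was 432 bp (open 489 bp, all regions 524 bp), with a range of 171 to 2922 bp. GC content was 48.8% and CpG density 13.8 per kb, close to open poised enhancers (49.6% and 14.8 per kb), where all regions had 45.2% and 9.68 per kb.

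Chromosomes 8 and 11 held the most members, with 189 (8.68%, beside 5.19% of all regions) and 190 (8.73%, beside 6.42%). Chromosome X held 4 members (0.184%, beside 2.92%) and chromosome Y 1. Open poised enhancers had similar shares, with 7.385% on chromosome 8, 8.483% on chromosome 11 and 0.1497% on chromosome X. The shares were thus not particular to the closed members. On the same chromosomes lay 2.985%, 6.681% and 3.067% of closed primed enhancers, and 6.561%, 5.843% and 1.251% of closed facultative heterochromatin. Input before Dox on chromosome 8 was 0.522 RPM at the median member, against 0.438 over all members. Over all regions it was 0.495 RPM on chromosome 8 and 0.271 RPM on chromosome X, and the part of input in these shares was not tested.

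By the nearest protein-coding start the 2177 members belonged to 1784 genes. Dact1, Gm10260, Hes1, Sipa1l3, Sppl3, St3gal2 and Zfhx3 had 5 members each. Members near the genes of 8 lists were counted next, and because the lists are short and were written with earlier results known, they are described without a test. Over all regions GATA6 was at least 2-fold higher from 8 h to day 4 at 31.4% and lower at 35.1%, and SOX17 was higher from before Dox to day 4 at 44.8%.

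Near regulators of endoderm there were 12 members at 9 genes, with GATA6 at least 2-fold higher from 8 h to day 4 at 5 and lower at 3, and SOX17 higher from before Dox to day 4 at 9. Over all regions these shares were 31.4%, 35.1% and 44.8%. The member near Pdgfra (chr5:75150851-75152483), the receptor gene that marks the PrE, had GATA6 of 1.31 RPM before Dox, 7.14 at 8 h, 8.30 at 16 h, 6.78 on day 1, 9.06 on day 2, 14.04 on day 4 and 18.4 in XEN cells. The one near Lhx1 (chr11:84603919-84605339), a homeobox gene of the anterior endoderm, had 0.653, 17.2, 26.3, 16.0, 11.8 and 7.70 RPM and 15.9 RPM in XEN cells. At Prdm1 (chr10:44507849-44508447, intron), which encodes a transcriptional repressor, GATA6 climbed from 2.34 RPM at 8 h to 6.82 on day 4 and 12.04 in XEN cells. Pdgfra and Prdm1 thus ended higher than they began, whereas Lhx1 peaked at 16 h.

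The 13 members near genes of the basement membrane and endocytosis included 6 with GATA6 at least 2-fold higher and none lower, and 10 with SOX17 higher, beside 31.4%, 35.1% and 44.8% of all regions. Besides the Col4a1 intron, they comprised a member in an intron of Col4a2 (chr8:11381967-11383031), where GATA6 was 4.12 RPM at 8 h, 7.52 at 16 h and 3.97 on day 4. In an intron of Lamb1 (chr12:31294282-31295219), the laminin beta 1 gene, GATA6 was 2.95 RPM at 8 h and 5.52 on day 4 and SOX17 went from 1.26 before Dox to 4.87 RPM.

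Of 22 members near neural genes, 14 had GATA6 at least 2-fold lower on day 4 than at 8 h and 2 higher, with a median change of -1.36, beside 35.1% lower and 31.4% higher over all regions. Near Irx5 (chr8:92303447-92304234), a patterning homeobox gene, GATA6 was 0.163 RPM before Dox, 10.9 at 8 h, 6.45 at 16 h, 2.91 on day 1, 1.52 on day 2 and 0.842 on day 4. The Msx2 intron (chr13:53470287-53471469) went from 20.1 RPM at 8 h to 4.25 on day 1 and back to 7.45 on day 4, with SOX17 of 8.08 RPM by then.

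Near mesoderm genes 7 of 13 members were lower and 1 higher (median -1.06), and near pluripotency genes 7 of 15 were lower and 3 higher (median -0.99), beside 35.1% and 31.4% of all regions. The lists share the 4 members near Tbx3. An intron of Esrrb (chr12:86403766-86404309) had GATA6 of 2.64 RPM at 8 h, 3.02 on day 2 and 0.814 on day 4, and 7.48 with control against 2.54 RPM with Oct4 siRNA. The member near Klf4 (chr4:55515487-55516878), a pluripotency factor gene, ran the other way, with GATA6 of 5.31 RPM at 8 h, 9.33 on day 2, 18.3 on day 4 and 30.4 in XEN cells and SOX17 of 1.70 RPM before Dox and 30.1 on day 4.

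Signaling genes had 11 members, 2 higher and 5 lower (median -0.32), beside 31.4% and 35.1% of all regions. Near Sfrp1 (chr8:23387307-23388388), a Wnt inhibitor gene, GATA6 was 4.51 RPM at 8 h and 1.73 on day 4, whereas near Wnt11 (chr7:98873126-98874054) it was 5.50 and 10.6 RPM. Trophectoderm genes had 7 members, 5 higher and 2 lower, beside the same shares of all regions, and a Tead4 intron (chr6:128273631-128274437) went from 1.12 RPM at 8 h to 8.03 on day 4. Of the Hox list, the member at Hoxc9 (chr15:102973539-102973867), in an intron of Hoxc5, had GATA6 of 0.558 RPM at 8 h and 1.73 RPM on day 4.

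**Figure D5:**
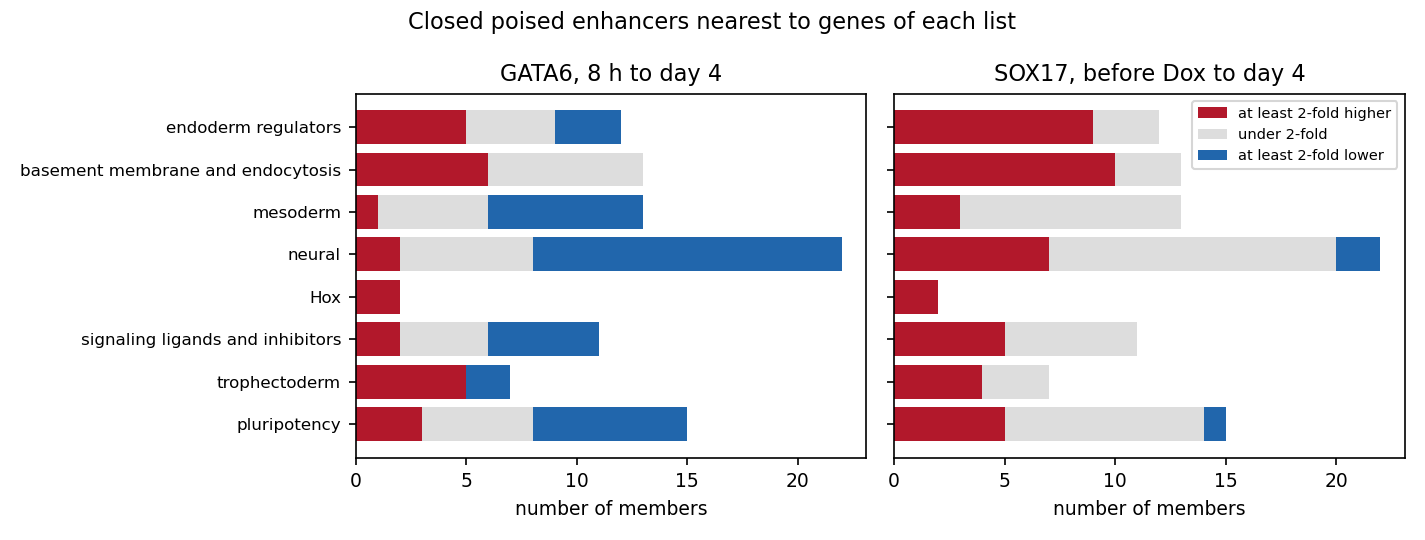
Number of closed poised enhancers nearest to genes of 8 lists that were at least 2-fold higher (red), under 2-fold (gray) or at least 2-fold lower (blue) in GATA6 from 8 h to day 4 (left) and SOX17 from before Dox to day 4 (right). GATA6 was lower at 14 of 22 members near neural genes and at none of 13 near genes of the basement membrane and endocytosis, beside 35.1% of all regions.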

How the data were processed

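Per the labels and the study's methods, the authors demultiplexed reads with bcl2fastq, trimmed them with cutadapt, aligned them to mm10 with Bowtie2, filtered them with SAMtools and removed duplicates by molecular identifiers. Peaks were called with MACS2 on merged replicates and kept if called in every replicate. The deposited RPM values are reads on each region scaled to library size, with replicates pooled by the authors and no correction for width. The deposited motif score is FIMO's score of the best match, and the motif classes are high, mid, low and none. SOX17 and PTF classes come from peak calls.

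Members were selected by the deposited state (poised enhancer) and accessibility before Dox (closed). Members, lists and rules were chosen with earlier results of these data known. For each region, log2(RPM + pseudocount) was subtracted between conditions. The pseudocount was percentile 5 of all values above 0 in an assay (GATA6 0.168 RPM, 0.182 SOX17, 0.167 OCT4, 0.195 SOX2, 0.164 ESRRB, 0.158 input), so folds of low regions are understated. Calls are at least 2-fold. Shares have 95% Wilson intervals and medians binomial order-statistic intervals. No test between conditions was possible with 1 pooled value each. In 4 columns 100% of values came out as whole reads (tolerance 0.01 reads), and no count test could be run on them either, since none has a replicate. The procedures were tested on simulated data with 200 changed regions.

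Named regions are the 5 leading members of each of 9 rankings (highest GATA6 at 8 h and at day 4, SOX17 at day 4 and OCT4 before Dox, the largest rise and fall of GATA6 from 8 h to day 4 and with Oct4 siRNA, and the largest rise of OCT4 to day 2) and, for each of 8 gene lists, the 3 members with the highest GATA6 in any condition. Not all of them are described. Coordinates are as deposited, in mm10. Sequences were read from GRCm38, the same assembly, where 31291 of 37547 full-width best GATA6 motifs held GATA on the stated strand. Genes are from GENCODE M21, by the nearest protein-coding start. The table's 14 columns of accessibility and histone values per sample, 1 column with the authors' outcome of the siRNA comparison, 12 further motif columns and input of the siRNA conditions were not used. Software was numpy 2.4.6, scipy 1.17.1, pandas 2.3.3 and matplotlib 3.10.9, run in Python 3.11.15.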

Additional observations from a re-analysis of the deposited data

How the results depend on the processing

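In all, 76 alternative values of 15 results were computed. A pseudocount 10 times larger lowered the median change of GATA6 to 8 h to 0.42, of SOX17 to day 4 to 0.26, of OCT4 to day 2 to 0.066, and with Oct4 siRNA of GATA6 to 0.042 and of SOX17 to 0.19. A pseudocount 10 times smaller gave 1.47, 1.04 and 0.29 for the time courses and 0.66 for SOX17 with siRNA. Relative to the median change of all regions, the values were -0.24 for GATA6 to 8 h, 0.015 for SOX17 to day 4, -0.011 for OCT4 to day 2, 0.015 for SOX17 with siRNA and 0.070 for ESRRB to day 4, the last chosen after seeing the data. Divided by input, GATA6 changed by 1.35 to 8 h and by -0.11 from 8 h to day 4, OCT4 by 0.38 and SOX2 by 0.14. Means in place of medians gave 0.052 for GATA6 from 8 h to day 4, 0.92 for SOX17 and 0.27 for OCT4. Members whose highest GATA6 was above the median of all regions had 1.63 and 0.54 for GATA6, 1.41 for SOX17, 0.47 for OCT4, 0.16 for SOX2 and 0.65 for SOX17 with siRNA.

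The larger pseudocount left 225 members at least 2-fold higher and 225 lower in GATA6 from 8 h to day 4, and a 3-fold limit left 415 and 406. The ratio of closed to open medians of GATA6 at 8 h was 0.670 per kb, 0.633 for means and 0.508 for regions high in GATA6, beside 0.580 as reported. On day 4 it was 1.36 per kb, 1.33 less input and 1.21 for regions high in GATA6, beside 1.08, and for SOX17 1.30, 1.52 and 1.26, beside 1.10. Of the members, 61.2% held a GATA6 motif of the high or mid class, 29.2% one of the high class and 89.7% any, and of members high in GATA6, 69.8% held a high or mid one. The cause of these shifts was not tested. No paired analysis was possible because the authors pooled the replicates of a condition into a single value, and no replicate could be left out for the same reason.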
